A study of Mus musculus with 12 samples.

Results

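Antibodies leave the cell as glycoproteins, and the enzymes that build and trim their N-linked glycans sit along the secretory pathway of the plasmablasts and plasma cells that make them, together called antibody-secreting cells (ASCs). Of the 32285 genes in the deposited count tables, 7 genes of these enzymes were followed by name: Man1a, Mgat1, Mgat2, Fut8, B4galt1, St6gal1 and St6galnac3. All 7 were present in the tables. They were read in cells whose most abundant light-chain variable gene held at least 50% of all light-chain variable counts and that had at least 1000 unique molecular identifiers (UMIs, 1 for each captured RNA molecule) outside the immunoglobulin genes, which gave 8715 of 39949 filtered barcodes. Cells were then split by tissue and by the heavy-chain constant gene with the most UMIs.

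The constant region of an IgG heavy chain carries an N-glycan, and that of IgM carries several. A precursor glycan is moved as a block onto the nascent chain by oligosaccharyltransferase in the endoplasmic reticulum, trimmed of glucose and mannose, and rebuilt in the Golgi. There Man1a, a mannosidase, cuts mannose, Mgat1 and Mgat2 add the N-acetylglucosamines that start the antennae, Fut8 adds the core fucose, B4galt1 adds galactose and St6gal1 caps galactose with α2,6-linked sialic acid. The fucose, galactose and sialic acid of the IgG Fc glycan are known to alter its binding to Fc receptors and complement. St6galnac3 is of another kind: the enzyme adds sialic acid to N-acetylgalactosamine in O-glycans and gangliosides, and is not known as an N-glycan enzyme.

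The cells came from Prdm1-eYFP mice, a C57BL/6 reporter strain in which cells that use the Prdm1 gene fluoresce, all 3 months old. There was 1 gene expression library per sex (female, male) and tissue (bone marrow, spleen, thymus), 6 in all, each from a pool of 3 mice and 1 droplet well of 10x Genomics 5' chemistry. All cells had been sorted as CD138 high, IgD- and CD90.2-, with or without B220, and positive for the Prdm1 reporter, so no library is from unsorted cells and every level below is within that gate. A tissue thus has 2 libraries and a sex 3. Whether 1 pool of mice gave all 3 tissues is not in the labels, and the p-values treat libraries as independent. Between tissues and sexes they measure only the spread between libraries. Between classes they measure only how class differences vary from library to library.

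The libraries gave 1238 female and 1665 male cells of the rule (bone marrow), 3567 and 1850 (spleen), and 107 and 288 (thymus), with between 264621 (female thymus) and 21287170 (female spleen) UMIs outside immunoglobulin genes. Xist was at 672 CPM or more in each female library and at 1.68 CPM or less in each male one. The 9 listed ASC genes, among them Sdc1, Prdm1, Xbp1, Irf4, Jchain and Mzb1, each had UMIs in every library and class. Sdc1 encodes CD138 and Prdm1 drives the reporter, so both were selected by the sort, and detection in a sum is a weak check. B cell genes (9 listed) were also all detected in each bone marrow and spleen library. They summed to 1084 to 1335 CPM over the libraries, against 58690 to 110500 CPM for the ASC genes. Plasmacytoid dendritic cell genes (5 listed) summed to 584 to 943 CPM. Neutrophil genes (8 listed) summed to 549 and 1363 CPM in bone marrow and to 0.141 CPM or less elsewhere, and T cell genes (10 listed) to 79.4 and 31.1 CPM in thymus and at most 14.1 CPM elsewhere. Genes of macrophages (8 listed) summed to 13.5 to 67.0 CPM and erythroid genes (6 listed) to 0 to 24.98 CPM. The female spleen stood apart: the share of a cell's UMIs estimated to come from free RNA had a median of 21.6% there against 3.73% to 16.9% in the others. Levels are given as CPM, UMIs per 1000000 UMIs outside immunoglobulin genes. CPM is a relative level, so fewer molecules of a gene per cell and more of other RNA cannot be told apart.

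In the GRCm38 assembly with GENCODE annotation, Man1a spans chr10:53904785-54076609 on the minus strand, Mgat1 chr11:49244191-49263030 (plus), Mgat2 chr12:69184157-69186770 (plus) and Fut8 chr12:77238125-77476338 (plus). B4galt1 spans chr4:40804602-40854005 (minus), St6gal1 chr16:23224740-23360350 (plus) and St6galnac3 chr3:153198266-153725174 (minus). In 4 members (St6gal1, Fut8, Mgat2 and Man1a) exons overlap those of a gene on the opposite strand, and in 0 members those of a gene on the same strand. Whether the counting used strand is not given in the sources used here. They thus do not tell whether reads of those 4 were kept apart from those of their antisense partners.

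St6galnac3 and B4galt1 are the members that differed most upward and most downward between IgA and IgM cells below, and both have 1 annotated start window, so the start-proximal sequence upstream of each is shown. The sequences are RefSeq, GRCm38.p6, from 250 to 51 bases before the start, read 5′ to 3′ on the gene's strand. Capitals mark the GC box GGGCGG or its reverse complement CCGCCC, a motif bound by Sp-family factors.
St6galnac3, chr3:153725184-153725383 (minus): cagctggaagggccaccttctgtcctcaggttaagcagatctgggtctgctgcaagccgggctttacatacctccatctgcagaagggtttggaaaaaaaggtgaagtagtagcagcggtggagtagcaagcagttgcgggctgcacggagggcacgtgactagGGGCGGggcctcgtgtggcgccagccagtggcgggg
B4galt1, chr4:40854035-40854234 (minus): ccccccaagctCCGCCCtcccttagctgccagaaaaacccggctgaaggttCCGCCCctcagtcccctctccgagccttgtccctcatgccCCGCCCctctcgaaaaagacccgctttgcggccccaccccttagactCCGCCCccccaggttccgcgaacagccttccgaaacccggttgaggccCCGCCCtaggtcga
The St6galnac3 window held 1 such motif and the B4galt1 window 5, and 24.6% of 32851 windows of 200 bases held at least 1 on either strand. The windows were 60.5% and 67.0% G or C, against a median of 51.5%. These are descriptions of the letters and were not tested against expression.

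Cells were grouped by class to ask whether the class a cell secretes went with the level of these enzymes. IgM cells made up 67.3% to 92.3% of a library, IgA cells 1.95% to 16.8% and IgG cells 4.08% to 19.7%, and 0 cells had Ighd or Ighe as the leading gene. UMIs were summed per library and class, and sums of fewer than 20 cells were left out, which removed the female thymus IgA (18 cells) and IgG (17 cells) sums. The 16 remaining sums were compared with edgeR's quasi-likelihood test with library and class as terms, so that each class was read against the others of its own library. Differences are fitted log2 fold changes, and calls are at a Benjamini-Hochberg adjusted p under 0.05 over all 9366 genes tested. The test gives no standard error. Each SE printed is the absolute log2 fold change divided by the square root of the test's F statistic, and is approximate.

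Between IgA and IgM cells, 3 of 6 members passed the test: St6gal1 was higher in IgA cells, and B4galt1 and Man1a were lower. Over all genes 7.99% were called, 3.74% higher and 4.25% lower. These are calls of single genes, and whole steps were not tested. Man1a2, a mannosidase of the same family as Man1a, had a log2 fold change of 0.50 in the other direction. The other member, St6galnac3, was also called, but it passed the filter on low counts mainly through the IgA sums where it is high, so its call is not counted as support and its levels are given as a description. The 3 members not called were Mgat1 (log2 fold change 0.04), Mgat2 (0.13) and Fut8 (0.14), each with an SE of at most 0.11.

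St6galnac3 was at a low level in IgM cells and a higher one in IgA cells, on few UMIs in both. Its IgA level was 33.3 CPM (female marrow), 48.2 CPM (male marrow), 22.0 CPM (female spleen), 53.1 CPM (male spleen) and 32.3 CPM (male thymus), the order used below. In IgM cells of the same libraries it was at 1.49, 1.496, 1.155, 0.5845 and 1.12 CPM. These IgA levels rested on 4 to 29 UMIs per library. Over all libraries, IgA cells held 68 UMIs in 491 cells and IgM cells 44 UMIs in 7085 cells, a ratio of 24.5 per UMI (95% counting interval 16.5 to 36.6). The fitted log2 difference was 4.71, and 4.63 without the filter on low counts. The female thymus, left out of the test, had 0 St6galnac3 UMIs in 18 IgA cells, which with 3 UMIs as the limit of a count of 0 allows up to 68.8 CPM. Free RNA held the gene at 0 to 3.57 CPM, under each of those 5 IgA levels. In male marrow and male thymus free RNA held 0 St6galnac3 UMIs, and IgM cells there held 13 UMIs and 1 UMI. In female marrow, female spleen and male spleen it was at 3.57, 3.26 and 3.24 CPM in free RNA, above its IgM levels there. Over all cells of the rule, 16.9 of 50 UMIs in female spleen and 4.89 of 13 in male spleen were estimated to be free RNA. IgM cells held 18 and 4 UMIs in those 2 libraries.

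St6gal1, which adds the terminal sialic acid of N-glycans, was abundant in every class. IgA cells had 499.5, 582, 295, 889 and 799 CPM. IgM cells of those libraries had 343, 430.5, 266, 513 and 582 CPM. Levels of the classes overlapped across libraries, but within each of the 5 tested libraries IgA cells were above IgM cells. In the female thymus, left out of the test, the 18 IgA cells had 435.5 CPM (19 UMIs) and the IgM cells 681 CPM, the opposite order. The log2 difference was 0.44 (SE 0.10, edgeR adjusted p = 0.0051).

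B4galt1, the galactosyltransferase that acts just before St6gal1, went the other way. IgA cells had 14.3, 14.8, 14.4, 33.2 and 105 CPM. IgM cells had 37.0, 36.1, 43.1, 54.4 and 60.4 CPM. IgA cells were lower in the 4 bone marrow and spleen libraries and higher in male thymus. The log2 difference was −1.03 (SE 0.24, edgeR adjusted p = 0.0058), on 4 to 19 IgA UMIs per library. Without the female spleen it was −0.56 and was not called (adjusted p = 0.347), and DESeq2 gave −0.86 with an adjusted p of 0.084. With the leading heavy gene at 80% it was −1.22, not called (adjusted p = 0.0999), and with the light chain at 80% it was −2.17 and called.

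Man1a, the mannosidase, was at 273.5, 363.5, 283, 544 and 726 CPM in IgA cells. IgM cells had 508, 746, 425, 790.0 and 735 CPM. The fall was seen in 5 of 5 libraries and was smallest in male thymus. The log2 difference was −0.64 (SE 0.12, edgeR adjusted p = 0.00077).

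**Figure D1:**
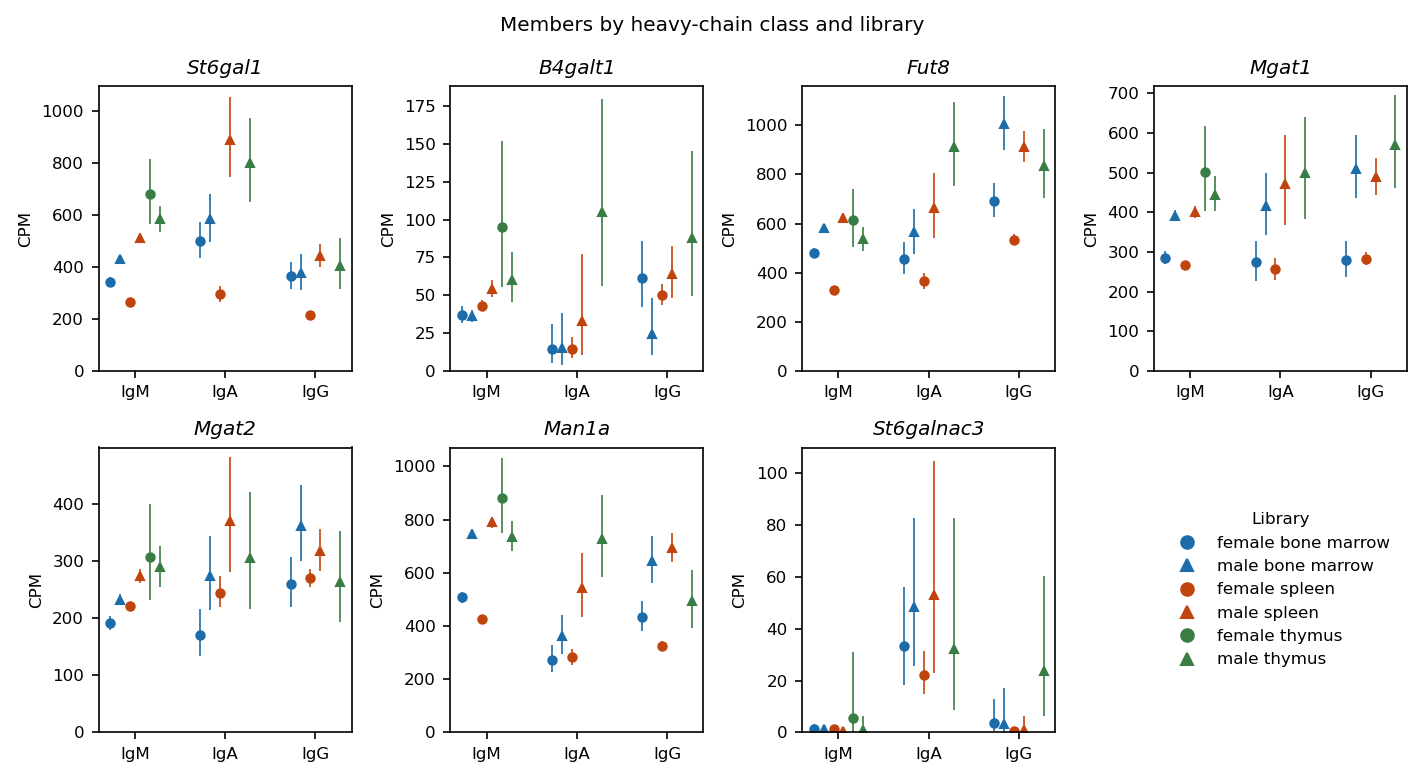
Level of each member (y axis, CPM, linear, starting at 0) in IgM, IgA and IgG cells. Each point is 1 library (colour for tissue, circle female, triangle male) with its exact 95% Poisson interval, which covers counting error only. St6galnac3 lies between 22.0 and 53.1 CPM in the IgA sums and at or under 5.58 CPM in the IgM sums.

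Between IgG and IgM cells Fut8 and Mgat2 were higher in IgG cells, 2 of 7, and 0 were called lower. Man1a was lower in IgG cells in 5 of 5 libraries but was not called (log2 difference −0.32, edgeR adjusted p = 0.072). It was called in 2 of 17 alternatives. Over all genes 11.6% were called, 5.26% higher and 6.38% lower.

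Fut8, the only enzyme known to add core fucose, was at 693, 1005, 535, 913 and 834 CPM in IgG cells, again from marrow to male thymus. IgM cells had 479, 583, 331, 623 and 535 CPM. IgG cells were higher in 5 of 5 libraries, and the female thymus sums left out of the test were at 1217 CPM in 17 IgG cells and 614 CPM in 72 IgM cells. The log2 difference was 0.62 (SE 0.11, edgeR adjusted p = 7.8e-05). IgA cells lay between 364 and 912 CPM.

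Mgat2, which starts another antenna, was at 261, 363, 270.1, 318 and 264 CPM in IgG cells in the same order of libraries, and at 191.5, 233, 221, 274 and 289.5 CPM in IgM cells. IgG cells were higher in 4 libraries and lower in male thymus. The log2 difference was 0.30 (SE 0.10, edgeR adjusted p = 0.039), and the call was lost in 10 of 17 alternatives. Among these are leaving out either bone marrow or either spleen library, where it was 0.25 to 0.28 with adjusted p of 0.119 to 0.216.

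Of the members not called, Man1a had a log2 difference of −0.32 (SE 0.11, edgeR adjusted p = 0.072) and was lower in IgG cells in 5 of 5 libraries. St6gal1 was at −0.23 (SE 0.10, adjusted p = 0.139). B4galt1 was at 0.29 (SE 0.14), Mgat1, which starts antenna building, at 0.19 (SE 0.10) and St6galnac3 at 0.88 (SE 0.68), none called. St6galnac3 in IgG cells rested on 11 UMIs in all, 4 of them in the 35 male thymus cells.

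The direct comparison of IgG with IgA cells, which shares its IgG and IgA sums with the comparisons above, called 3 of the 6 members other than St6galnac3, against 10.1% of all genes (5.65% higher and 4.42% lower). B4galt1 (log2 fold change 1.32, SE 0.26, edgeR adjusted p = 0.00071) and Fut8 (0.48, SE 0.12, adjusted p = 0.0061) were higher in IgG cells. Both were higher in IgG cells in 4 of 5 libraries, with male thymus in the opposite order (B4galt1 88.1 against 105 CPM, Fut8 834 against 912 CPM). St6gal1 (−0.68, SE 0.11, adjusted p = 5.9e-05) was lower in the 5 tested libraries. St6galnac3, with a fitted log2 difference of −3.83, was kept by the filter through its IgA sums, and its 11 IgG UMIs against 68 IgA UMIs are a description. The left-out female thymus sums had St6gal1 at 453 CPM in IgG and 435.5 CPM in IgA cells, on 19 UMIs each. Without the female spleen neither B4galt1 (0.84, adjusted p = 0.175) nor Fut8 (0.40, adjusted p = 0.097) was called, and without the male spleen Fut8 was at 0.41 (adjusted p = 0.059). With the heavy gene at 80% B4galt1 (1.22, adjusted p = 0.089) and Fut8 (0.35, adjusted p = 0.084) were not called, and B4galt1 was at 2.62 with the light chain at 80%. Man1a (0.32) was not called, but was at 0.47 (adjusted p = 0.0097) without the male thymus.

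**Figure D2:**
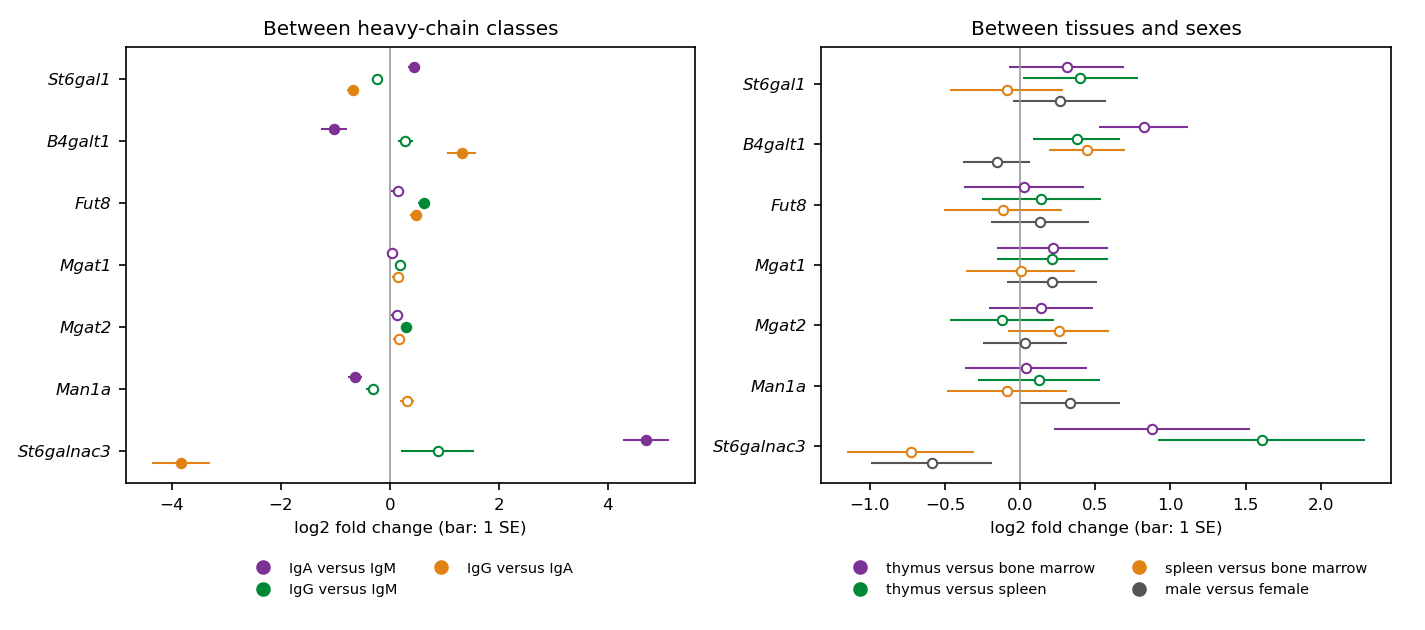
Log2 fold change of each member (x axis) with a bar of 1 SE, between heavy-chain classes (left) and between tissues and sexes (right); filled points passed an adjusted p of 0.05. Filled points occur in the left panel, from −3.83 to 4.71 (both St6galnac3, kept by the low-count filter mainly through its IgA sums), and the right panel has none.

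Several properties of the cells moved with class. The summed ASC genes, of which Jchain is the bulk, were at 92480 to 145400 CPM in the 5 tested IgA sums. In the same libraries they were at 51020 to 79610 CPM in IgG and 73690 to 111700 CPM in IgM, with IgM above IgG in each. The 9 B cell genes there summed to 740 to 1024 CPM in IgA, 1228 to 1617 CPM in IgG and 1079 to 1295 CPM in IgM. In bone marrow the neutrophil genes summed to 642 and 1450 CPM in IgM cells and to 97.2 to 114 CPM in IgA and IgG cells. Plasmacytoid dendritic cell genes (5 listed) were at 856 to 1122 CPM in IgA cells, with Siglech and Spib at 0 in each, at 648.5 to 1163 CPM in IgG cells and at 562 to 876 CPM in IgM cells of the 5 tested libraries. Within each of these libraries IgM cells were lowest in this sum. Macrophage genes (8 listed) went the other way, at 14.5 to 77.4 CPM in IgM cells, 8.07 to 33.4 CPM in IgA cells and 11.8 to 24.6 CPM in IgG cells, with IgM cells highest in each of the 5. Cells with at least 0.3% of their UMIs in 16 cycling genes were 12.2% of the IgG cells against 3.68% of the IgM cells in female bone marrow. The shares were 9.10% against 5.65% in female spleen, and 5.44% to 5.88% against 3.50% to 4.41% in the 3 male libraries. IgA cells were at 0.926% (female marrow), 3.33% (male marrow), 4.53% (female spleen) and 3.85% (male thymus), each under the IgM cells of the library. In male spleen they were above them, at 5.56% against 3.50%. Their part in the class differences was not tested, beyond 2 measurements. With cycling cells removed the log2 differences of IgA against IgM were 4.64 (St6galnac3), 0.45 (St6gal1), −0.62 (Man1a) and −1.10 (B4galt1), and those of IgG against IgM were 0.65 (Fut8) and 0.34 (Mgat2). With cells holding markers of other types removed they were 4.71, 0.44, −0.64 and −1.06, and 0.62 and 0.30.

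Among the IgG subclasses no member was called in a joint test. edgeR called 0 of the 6 members tested between cells led by Ighg1, Ighg2b, Ighg2c and Ighg3 (14 sums), with 0 at an unadjusted p under 0.05 and 0.207% of 6275 genes called. St6galnac3 was too low to be tested there. With the minimum of 20 cells, Ighg1 entered only through the female spleen (65 cells), so its spread between libraries could not be seen. Summed over libraries, Fut8 was at 547 CPM in the Ighg3 cells, 634 CPM in the Ighg2b cells, 660.5 CPM in the Ighg2c cells and 783 CPM in the Ighg1 cells, with 469.8 CPM in Ighm and 459.8 CPM in Igha cells. St6gal1 ran from 205 CPM (Ighg1) to 297 CPM (Ighg2b), under the 370.1 CPM of Ighm and the 433 CPM of Igha cells. This order of pooled sums was not kept within every library. In the female spleen Fut8 was at 357 CPM in Ighg3 (94 cells) and 364 CPM in Igha cells, and in female bone marrow St6gal1 was at 378.5 CPM in Ighg2b (68 cells) and 343 CPM in Ighm cells. B4galt1 was lowest in Igha cells at 21.5 CPM, with 43.4 to 57.5 CPM in the other 5 groups. These sums weight libraries by their cells, and 65 of the 86 Ighg1 cells came from the female spleen.

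**Figure D3:**
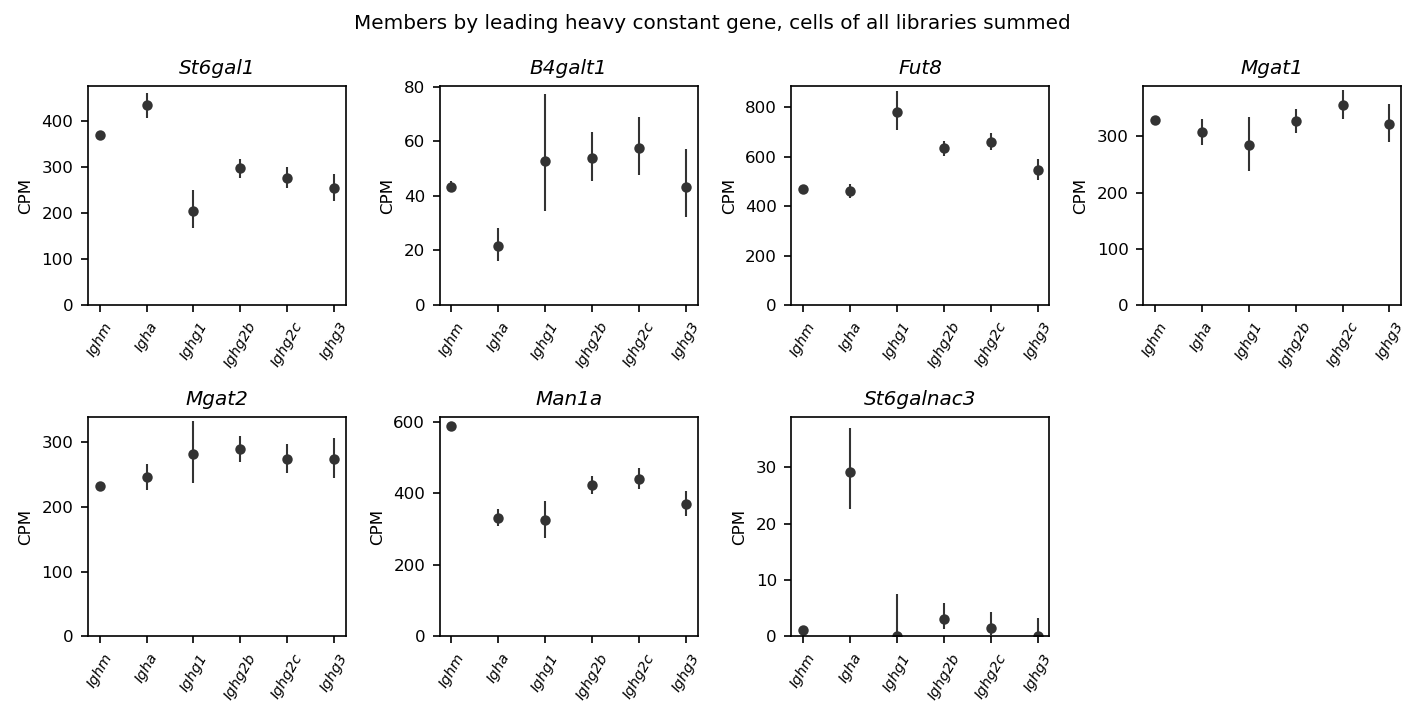
Level of each member (y axis, CPM, linear, starting at 0) in cells grouped by leading heavy constant gene and summed over the 6 libraries, with exact 95% Poisson intervals for counting error only. Fut8 lies at 547 to 783 CPM in the 4 IgG groups against 469.8 in Ighm and 459.8 in Igha cells.

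The design also allows the 3 tissues to be set against each other, and females against males. edgeR called 0 of the 7 members in each of the 4, in an additive fit of sex and tissue over the 6 library sums with 2 residual degrees of freedom. Of 11239 genes, 0.765% were called between thymus and bone marrow, 0.632% between thymus and spleen, 0.436% between spleen and bone marrow and 0.427% between the sexes. At an unadjusted p under 0.05 there was 1 member between thymus and bone marrow (B4galt1), 1 between thymus and spleen (St6galnac3) and 0 in the other comparisons, and DESeq2 called 0 in all 4.

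B4galt1 had 37.7 CPM (female) and 35.1 CPM (male) in marrow. Its spleen libraries had 42.8 CPM (female) and 56.0 CPM (male), and its thymus libraries 90.7 CPM (female) and 69.0 CPM (male). Both thymus libraries were above the other 4. In the female thymus, 10 of the 24 UMIs came from 5 cycling cells. With cycling cells set aside, B4galt1 was at 55.8 CPM (14 UMIs) in female thymus, 61.7 CPM in male thymus and 50.8 CPM in male spleen. Between thymus and bone marrow its log2 fold change was 0.82 (SE 0.30, edgeR adjusted p = 0.378). It was called when the female spleen (0.84, adjusted p = 0.0398) or the male spleen (0.82, adjusted p = 0.0451) was left out, which leaves 1 spleen library assumed to vary like the other tissues.

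With the female library first, St6gal1 had 357 and 433 CPM (marrow), 257.5 and 511 CPM (spleen), and 605 and 579.5 CPM (thymus), again with both thymus libraries highest. Fut8 had 499 and 597 CPM (marrow), 375.5 and 655 CPM (spleen), and 733 and 617 CPM (thymus). Man1a, with 484 and 731 CPM (marrow), 396 and 773 CPM (spleen), and 778.5 and 699.8 CPM (thymus), had the same lowest library. The female spleen was also lowest in Mgat1 (269 CPM, against 284 to 479.9 CPM in the others). Mgat2 ranged from 197 CPM (female bone marrow) to 291 CPM (female thymus), and St6galnac3 from 1.64 CPM (male spleen) to 7.57 CPM (male thymus) on 1 to 50 UMIs. The female spleen also had the highest free-RNA share. Its free RNA held St6gal1, Fut8 and Man1a at 327, 376.7 and 452 CPM, at or above the level in its cells, and Mgat1 at 179 CPM, below it. For these 6 members the log2 fold changes lay between −0.73 and 1.61 with SEs of 0.28 to 0.69, too wide to tell a small difference from none.

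Whether a class difference itself changed from spleen to bone marrow was tested with a class-by-tissue term over the same 16 sums. edgeR called 0 of 7 members for IgA against IgM (0.0961% of all genes) and 0 of 7 for IgG against IgM (0.0107%), with 0 at an unadjusted p under 0.05 in both. The differences, bone marrow minus spleen, ran from −0.41 (Man1a, SE 0.22) to 0.06 (St6gal1, SE 0.21) for IgA. For IgG they ran from −0.18 (Mgat1, SE 0.20) to 1.35 (St6galnac3, SE 1.49).

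Levels were also read in cycling and other cells of the same library. The 425 cycling cells held a median of 0.709% cycling-gene UMIs and 7846 UMIs outside immunoglobulin genes, the 8290 others 0.015% and 3480 UMIs, and 132 cells lay near the limit, between 0.2 and 0.4%. In the 5 libraries with at least 10 cycling cells, B4galt1 was at 62.7 to 119 CPM in cycling and 32.3 to 61.7 CPM in other cells, higher in 5 of 5. Fut8 was at 215 to 424 CPM in cycling and 399.6 to 675 CPM in other cells, lower in 5 of 5. Mgat2 was higher in 5 of 5 (248 to 401 CPM against 189 to 285 CPM), and St6gal1, Mgat1 and Man1a lower in 5 of 5. In the female thymus, with 5 cycling cells, Mgat2 and Man1a went the other way, at 0 and 11 UMIs in those cells (0 CPM, which with 3 UMIs as the limit allows up to 221 CPM, and 809.6 CPM) against 306.7 and 777 CPM in the others. St6galnac3 had 0 to 3 UMIs in the cycling cells of each library, too few to give a direction. The split was chosen with class results known and is given as a description with no test. The share of all genes that moved in 1 direction in 5 of 5 libraries was not taken. These directions therefore cannot be read as particular to the members.

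**Figure D4:**
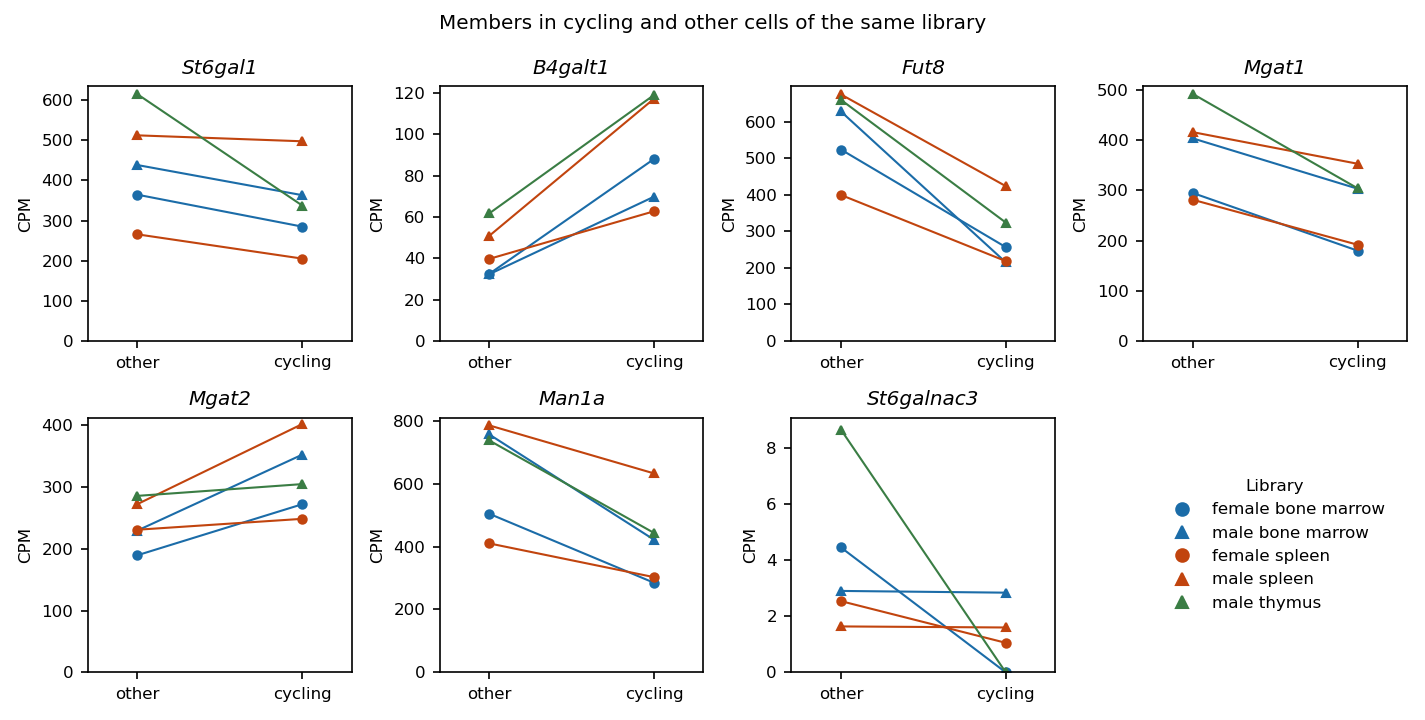
Level of each member (y axis, CPM, linear, starting at 0) in cycling and other cells, with a line joining the values of 1 library (colour for tissue, circle female, triangle male) for the 5 libraries with at least 10 cycling cells. B4galt1 and Mgat2 are higher in cycling cells in all 5 libraries and Fut8, St6gal1, Mgat1 and Man1a lower, while St6galnac3 rests on 0 to 3 UMIs per library in cycling cells.

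The rest of the pathway was read from 105 listed symbols, of which 104 were in the tables and 88 tested between classes. The lists were made by step and sugar, and not all of their genes act mainly on N-glycans, St3gal1 and St3gal2 below among them. Between IgA and IgM cells 6 were called higher and 2 lower, against 3.74% and 4.25% of all genes, a share near the background. Here and in the steps below, counts of higher, lower or differing genes are of called genes only. The 6 include Mgat3, which passed the low-count filter through its IgA sums and is no support. They also include St3gal2, which rests on few UMIs and is not counted as support either. The median log2 fold change of the 88 was −0.03, against −0.02 over all genes. Between IgG and IgM 14 were higher and 4 lower, against 5.26% and 6.38% of all genes (median 0.10, all genes 0.01). Between IgG and IgA 14 were higher and 7 lower, against 5.65% and 4.42% (median 0.13, all genes 0.01). Between tissues and sexes edgeR called 0 of 91 in each comparison, with 2 to 8 at an unadjusted p under 0.05.

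At the first step, oligosaccharyltransferase, 2 of 12 genes were called lower in IgA than in IgM cells and 0 higher, against 4.25% and 3.74% of all genes. In IgG against IgA cells 7 of 12 were called higher and 0 lower, against 5.65% and 4.42%. Stt3b, one of the alternative catalytic subunits, was lower in both switched classes, with log2 differences of −0.90 (SE 0.18, edgeR adjusted p = 0.0014) in IgA and −0.99 (SE 0.16, adjusted p = 4.5e-05) in IgG cells. Both comparisons share the IgM sums. In male thymus Stt3b was higher in IgA (605 CPM) than in IgM cells (428 CPM), against the other 4 libraries. Ddost, a non-catalytic subunit, was higher in IgG than in IgM cells by 0.60 (SE 0.10, adjusted p = 5.4e-05). Dad1, another, was lower in IgA than in IgM cells (log2 difference −0.52, SE 0.11, edgeR adjusted p = 0.0028), and was at −0.28 without a call (adjusted p = 0.275) where the leading heavy constant gene had to hold 80% of such UMIs. Ddost (0.65) and Ostc (0.56) were among the genes higher in IgG than in IgA cells, and Ostc was not called without the male spleen (0.41, adjusted p = 0.057). Of the 23 genes of the lipid-linked precursor, 0 differed between IgA and IgM and 3 were higher in IgG than in IgM, where 5.26% of all genes were. Alg8, a glucosyltransferase, and Dpm3, a subunit of dolichol phosphate mannose synthase, were higher in IgG than in IgA cells by 0.74 and 0.54. Alg8 lost its call without the female spleen (0.67, edgeR adjusted p = 0.1996) or without cycling cells (0.44, adjusted p = 0.215), and Dpm3 without the male spleen (0.40, adjusted p = 0.063). With the light chain at 80% Ostc (0.38), Dpm3 (0.375) and Alg8 (0.80) were not called (adjusted p of 0.112 to 0.123).

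In trimming and the folding check, 4 of 17 tested genes were higher in IgA than in IgM cells and 0 lower, against 3.74% and 4.25% of all genes. Man1a2, a mannosidase of the same family as Man1a, was at 0.50 (SE 0.10, edgeR adjusted p = 0.0016) where Man1a was at −0.64, and was lower in IgG than in IgA cells (−0.54, SE 0.11). With the leading light-chain gene at 80% neither Man1a2 difference was called (0.38, adjusted p = 0.247, and −0.20, adjusted p = 0.665). Edem2, which starts mannose removal on misfolded proteins, was at 0.56 (SE 0.13). In IgG against IgM cells 4 were higher, Edem1 (0.51) among them, and 1 lower, against 5.26% and 6.38% of all genes. The lower one was Manea, an endomannosidase (−0.55, SE 0.10).

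Among the branching and galactose genes, 1 of 13 tested was called in IgA against IgM cells: Mgat3, which adds the bisecting N-acetylglucosamine. It gave 1, 7, 11, 4 and 1 UMIs in the 5 IgA sums, in the order above, and 5 UMIs over all 7085 IgM cells. The ratio was 76.0 (95% counting interval 28.4 to 255.2), and over IgG cells, with 1 UMI, it was 65.5 (10.7 to 2693). Mgat3 entered the test only through the IgA sums where it was high, so its call is no support for a difference, and these UMIs are given as a description. Of 8 fucose genes tested, 1 was higher in IgG than in IgM cells, against 5.26% of all genes, and 0 differed between IgA and IgM.

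Of 15 sialic acid genes tested, 1 was higher in IgA than in IgM cells and 0 lower, against 3.74% and 4.25% of all genes. It was St3gal2 (1.59, SE 0.40, edgeR adjusted p = 0.0096). In IgA cells it rested on 12 and 3 UMIs in female and male marrow and 8 and 5 UMIs in female and male spleen. Its sums reached 48.4 CPM in IgA, 15.4 CPM in IgG and 11.2 CPM in IgM cells. St3gal2 may thus have passed the low-count filter mainly through its IgA sums, so its call is not counted as support. It lost the call without the female bone marrow (1.275, adjusted p = 0.106) or the male spleen (1.51, adjusted p = 0.054), and with the light chain (1.65, adjusted p = 0.162) or heavy gene at 80% (1.87, adjusted p = 0.060). In IgG against IgM cells 2 of the 15 were higher and 2 lower, against 5.26% and 6.38% of all genes. Beside Cmas, which activates sialic acid and was named after its value was seen (0.40, edgeR adjusted p = 0.012), St3gal1 was higher (0.87, SE 0.12, adjusted p = 2.5e-06), and St8sia6 (−0.69, SE 0.12, adjusted p = 5.8e-05) and St3gal6 (−0.86, SE 0.19, adjusted p = 0.0018) were lower. The latter 2 were also lower in IgG than in IgA cells (−0.91 and −1.15), St3gal6 without a call when the female spleen was left out (−0.85, adjusted p = 0.181). St3gal1 and St3gal2 are α2,3-sialyltransferases that act mainly on O-glycans, as St6galnac3 does.

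**Figure D5:**
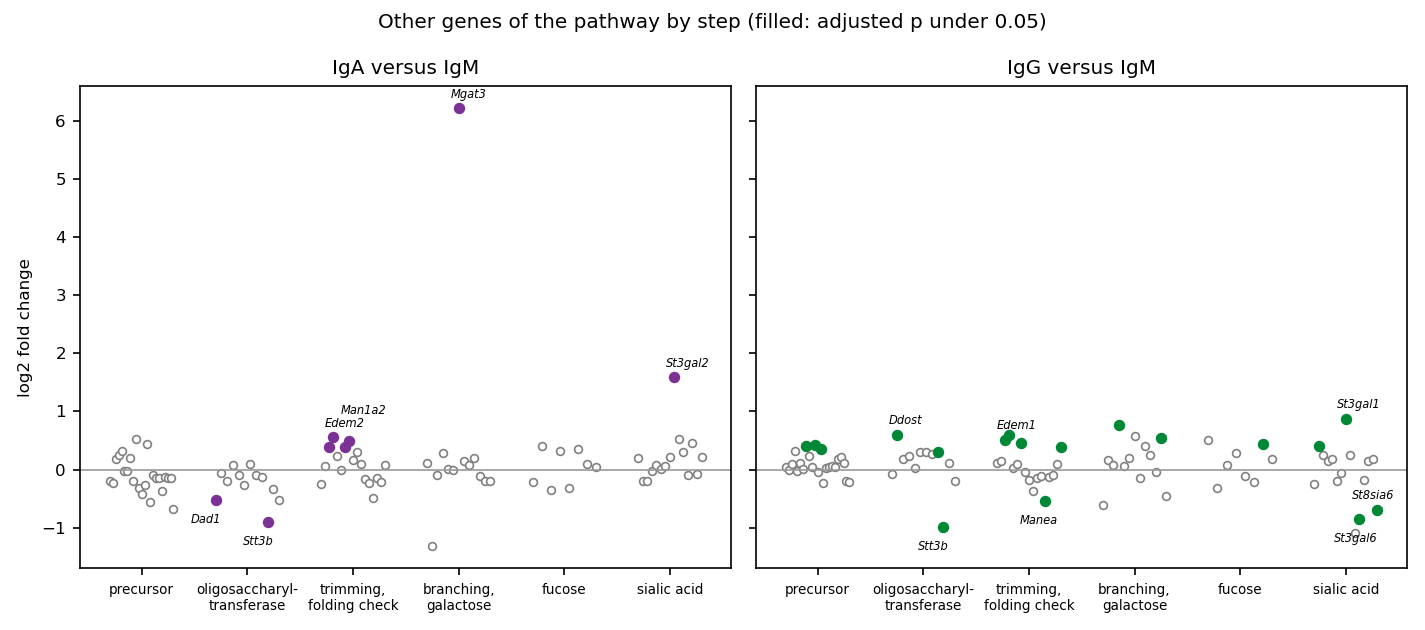
Log2 fold change (y axis) of the other pathway genes, grouped by step (x axis), in IgA against IgM (left) and IgG against IgM (right). Filled points passed an adjusted p of 0.05, and the named ones are among the up to 4 per direction with the lowest p, Mgat3 at 6.23, which entered the test through its IgA sums, being the highest.

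Across the 16 sums the members did not form 1 block. Pearson's r of log2(CPM + 1) between pairs ran from −0.37 (Man1a with St6galnac3) to 0.79 (Fut8 with Mgat1), as a description over sums that share libraries and depths. The most alike genes, among those at a mean of at least 50 CPM, were Ncapg2 (0.88), the integrin subunit gene Itgb7 (0.88) and Chic2 (0.85) for St6galnac3, and P4hb (0.94), a protein disulfide isomerase, Rpn2 (0.94) and Rpn1 (0.92) for Mgat2. Rpn1 and Rpn2 encode subunits of oligosaccharyltransferase. For Fut8 they were Slc30a5 (0.90), Baz2a (0.89) and Dok3 (0.88), for St6gal1 Ankrd44 (0.96), Huwe1 (0.94) and Tnrc6a (0.94), and for Man1a Gpr155 (0.95), Ppp3ca (0.92) and Itgb1 (0.92). For Mgat1 they were Tcf3 (0.95), the chaperone gene Hyou1 (0.94) and Eif4g1 (0.93), and for B4galt1 H2-Q6 (0.89), Cflar (0.89) and Hnrnpa2b1 (0.86).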

How the data were processed

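The files hold raw UMI counts per gene and barcode, deposited by the authors as filtered 10x matrices made with Cell Ranger 6.0.2 against mm10 (GRCm38), per the submitters' processing notes. The filtered files' headers name that version and the unfiltered ones, used only for free RNA, another, per the file headers. Counting settings are not given in the sources used here. The members and gene lists were chosen with earlier results of these data known. All members are named; pathway genes are named where they were among the up to 4 lowest p per direction past an adjusted p of 0.05 (1 of these is not reported here), and genes alike by the 3 highest correlations. Immunoglobulin genes (395 symbols starting Igh, Igk or Igl) were left out of totals and tests. Sums were fitted with edgeR 4.0.16 in R 4.3.3 (filterByExpr, TMM, quasi-likelihood test), with DESeq2 1.42.0 as an alternative. Doublets were limited only by the light-chain rule, since no caller was run. Free RNA was estimated from light-chain variable UMIs outside a cell's leading gene over barcodes of 1 to 50 UMIs. On simulated counts for the 8956 genes of IgA against IgM, 76.5% of doubled or halved genes were recovered. For thymus against bone marrow (11081 genes) it was 18%. At a log2 change of 0.5, nearer the size of most member differences, 26% were recovered for IgA against IgM and 41% for IgG against IgM. Only genes above a minimum mean level were changed in these simulations.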

Additional observations from a re-analysis of the deposited data

Results flagged for a closer look

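Of 42 combinations of member and class or class difference, 4 had 1 library far from the others of its group, and chance flags about 1 in 20. Fut8 in IgA minus IgM cells of the same library was 0.77 on the log2(CPM + 1) scale in male thymus, and B4galt1 was at 105 CPM in IgA cells of male thymus. St6galnac3 was at 23.5 CPM in IgG cells of male thymus, on 4 UMIs, and at 5.58 CPM in IgM cells of female thymus, on 1 UMI. All 4 values came from the thymus, the tissue with the fewest cells. Groups of libraries moved in opposite directions for 2 members. Fut8 in IgA minus IgM cells averaged −0.06 in both bone marrow libraries and 0.11 in both spleen libraries, and edgeR's class-by-tissue term gave −0.17 (SE 0.22, adjusted p = 0.949). Mgat1 in IgA minus IgM cells averaged −0.06 in females and 0.16 in males, and that difference was not tested.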

How the results depend on the processing

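St6gal1 and Man1a (IgA against IgM) and Fut8 (IgG against IgM) were called in 16 of 17 alternatives, each lost only without the library term. The differences there were 0.42, −0.63 and 0.60, about as large as with it. Stt3b, Dad1, Man1a2, Edem2, Ddost, Edem1, Manea, St8sia6, St3gal2, St3gal6, Ostc, Dpm3 and Alg8 also lost calls without it (Edem2 and Man1a2 at 0.61 and 0.47 there). Counts of members here include St6galnac3, whose calls are no support. That setting left 1, 0 and 1 members called in IgA against IgM, IgG against IgM and IgG against IgA. IgG against IgM had 1 member called with at least 2000 UMIs, with free RNA subtracted and with sums of any size (an alternative chosen after seeing the data), and IgG against IgA had 2 with a heavy constant gene at 80%. Leaving out 1 library at a time gave 3 to 4, 1 to 2 and 2 to 5 members in these comparisons, and 0 to 1 between thymus and bone marrow. Over all genes the calls ranged over the alternatives from 66 to 1029, 194 to 1219 and 116 to 1064. They ranged from 14 to 353 (thymus against bone marrow), 7 to 934 (thymus against spleen), 8 to 158 (spleen against bone marrow), 6 to 205 (sexes), 12 to 49 (subclasses), and 7 to 22 and 1 to 16 (class by tissue, IgA and IgG).

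In all, 49 values changed sign, each for a difference that was not called, and the cause was not tested. Thymus against bone marrow: in IgG cells only St6gal1 was −0.12, Fut8 −0.27, Mgat2 −0.33 and Man1a −0.47, in IgM cells only Fut8 was −0.20, and in IgA cells only St6galnac3 was −0.82. Fut8 was −0.064 at 2000 UMIs and −0.016 with free RNA subtracted. Leaving out 1 library gave −0.21 to 0.23 for Fut8, −0.27 to 0.31 for Man1a and −0.57 to 1.26 for St6galnac3. Thymus against spleen: in IgG cells only St6gal1 was −0.0062, Fut8 −0.18 and Man1a −0.47, in IgA cells only St6galnac3 was −0.50, and Mgat2 was 0.028 with the light chain at 80%. Leaving out 1 library gave −0.086 to 0.35 for Fut8, −0.25 to 0.0011 for Mgat2 and −0.19 to 0.40 for Man1a. Spleen against bone marrow: Mgat1 was −0.041 with the light chain at 80%, −0.00030 without cells holding other types' markers and −0.033 in IgM cells only, and Man1a was 0.28 in IgA and 0.0031 in IgG cells only. Leaving out 1 library gave −0.35 to 0.15 for St6gal1, −0.33 to 0.084 for Fut8, −0.11 to 0.14 for Mgat1 and −0.27 to 0.085 for Man1a. Male against female: B4galt1 was 0.43 and St6galnac3 0.61 in IgA cells only, and Mgat2 was −0.063 with the light chain at 80% and −0.0088 without cycling cells. Leaving out 1 library gave −0.025 to 0.28 for Fut8 and −0.061 to 0.12 for Mgat2. IgA against IgM: Mgat1 was −0.027 with no low-count filter, −0.045 with the heavy gene at 80% and −0.00310 with VDJ classes. IgG against IgM: B4galt1 was −0.0020 with the heavy gene at 80%. Class by tissue: with the light chain at 80% B4galt1 was −0.67 and Mgat1 0.15 for IgA and St6gal1 −0.17 for IgG, and St6gal1 was −0.028 with no filter and −0.020 at 2000 UMIs.

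Classes from the VDJ library of the same label were not run, since under 1% of cells shared a barcode with it. Leaving out libraries and DESeq2 were not run for the subclass and class-by-tissue comparisons. The class fits compared classes within a library and the tissue fit tissues within a sex. Beyond these terms, no paired analysis was possible because the labels give 1 library per sex and tissue and number no replicates. Tissue comparisons rest on 2 libraries a tissue, and 2-fold changes simulated between thymus and bone marrow were recovered in 18% of 200 genes. B4galt1, St6galnac3, Mgat3 and St3gal2 in IgA cells rest on few UMIs per library.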

Other observations

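The antigen receptor (VDJ) libraries and gene expression libraries that carry the same sex and tissue in their labels shared 0.0541% to 0.935% of the cells' barcodes. The VDJ library labelled with the other sex of the same tissue shared 31.4% to 99.1%. Where classes were taken from the VDJ library with the most shared barcodes, they matched the class by leading constant gene in 91.7% to 100% of cells with both. Under those classes 4, 2 and 4 of 7 members (St6galnac3 included) were called for IgA against IgM, IgG against IgM and IgG against IgA. Over all 9230 genes tested, 969, 1194 and 724 were called.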
